A study of Mus musculus with 504 samples.

Results

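P10 is a sorting gate for mammary tumour cells with high eGFP, no mCherry and low EpCAM at the cell surface, taken from mice that trace epithelial-mesenchymal transition (EMT). The gate gave 25 pools of 5 cells that passed the submitters' quality control, out of 335 such libraries in the series. The pools were divided by the RNA level of Krt8, the type II keratin of simple epithelia: 18 pools held at least 10 CPM of Krt8 and 7 pools held less. CPM is a gene's count divided by the total count of its library, times 1000000. Because a measured level made the groups, all differences between them are given as descriptions, with no test. Both groups come from the same gate, genotype and treatment, so the question is how far pools under 1 gate label differ among themselves.

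All pools compared here came from mice with the transgenes MMTV-PyMT and MMTV-Flpo, the reporter RC::FrePe and the driver Tnc-CreERT2. PyMT is an oncogene that drives mammary carcinoma from the MMTV promoter, and the same promoter drives the Flpo recombinase in mammary epithelium. The FrePe reporter turns cells red (mCherry) after Flp and switches them for good to green (eGFP) once Cre has acted too. CreERT2 follows the activity of Tnc, the tenascin C gene of the extracellular matrix, and needs tamoxifen to act. Every mouse received 2 mg of tamoxifen repeatedly from 9 weeks of age until its tumours were taken at about 13 to 14 weeks. The neighbouring green gates were P15, with no EpCAM (12 libraries), and P16, with medium EpCAM (26 libraries). One label speaks of cell lines, while the growth protocol states that cells went straight from tumour to sorter. RNA was amplified by Smart-seq2, a full-length method without molecular identifiers, so PCR copies were counted.

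Keratins 8 and 18 pair into the intermediate filaments of simple and luminal epithelium, where they attach to desmosomes and carry mechanical load. In EMT, epithelial cells lose E-cadherin, claudins and EpCAM, exchange keratin for vimentin filaments, and come under repressors of the Snail, Zeb and Twist families. In a partial EMT some epithelial genes stay on while mesenchymal genes appear. A mammary tumour also holds macrophages, lymphocytes, fibroblasts and vessels, so markers of these cells were read in the same pools.

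Krt8 status followed the animal closely. TENA2462 gave 7 pools with Krt8 and 0 without, TENA2524 also gave 7 and 0, TENA2517 gave 0 and 4, and TENA2483 gave 4 and 3. TENA2483 alone held both kinds; elsewhere Krt8 status and animal cannot be told apart. The labels place TENA2524 on lane 2 and the others on lane 1, so all pools without Krt8 come from lane 1. The fifth Tnc-CreERT2 animal gave no P10 pool that passed quality control.

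Library content differed as well. Total counts ran from 718932 to 9524984 in pools with Krt8 (median 3351137) and from 313655 to 4646446 in pools without (median 3056122). Much of each library fell on 4 overlapping genes of a ribosomal RNA locus (mm10, chr17:39843013-39848827; CT010467.1, Gm42418, AY036118 and Gm26917). That share was 37.1% to 85.5% with Krt8 (median 56.6%) and 34.8% to 94.1% without (median 66.8%). When each library was thinned to 100000 counts outside the locus, 1963 to 8933 genes were detected with Krt8 (median 5841) and 2713 to 5616 without (median 3444). The part of these differences in the results was not tested. In pooled cells, fewer cells of a type and less RNA per cell cannot be told apart.

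**Figure D1:**
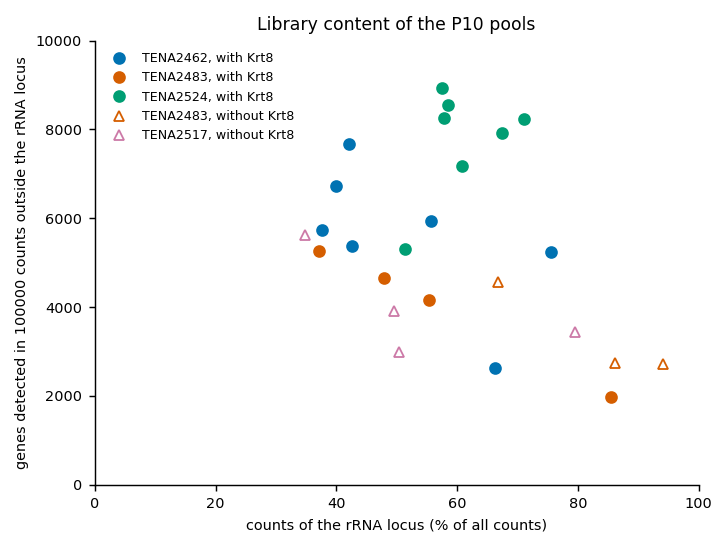
Share of counts on the ribosomal RNA locus (horizontal axis, percent of all counts) and genes detected after thinning to 100000 counts (vertical axis) in each of the 25 P10 pools; filled circles are pools with Krt8, open triangles pools without, coloured by animal. The pools without Krt8 lie between 2713 and 5616 genes, within the range of the pools with Krt8 but below their median of 5841.

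The threshold lay in an empty stretch of Krt8 values. Krt8 (ENSMUSG00000049382, mm10 chr15:101996698-102004482, minus strand) ranged from 190.6 to 7459 CPM in the 18 pools with it (median 2161) and from 0 to 7.36 CPM in the 7 pools without (median 0). Just above the threshold, TENA2483 R1 held 365 Krt8 counts (190.6 CPM) and TENA2483 R3 1671 (293 CPM), and just below it TENA2483 R4 held 24 (7.36 CPM) and TENA2517 R1 held 1 (0.881 CPM). The level also varied by mouse, with medians of 3604 CPM in TENA2462, 1580 CPM in TENA2524 and 343 CPM in the 4 pools of TENA2483.

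Krt18, the type I partner of Krt8, lies next to it on chromosome 15 (chr15:102028180-102032027, plus strand). The 250 bases before the RefSeq start are shown for Krt8, Krt18 and Epcam, which were high in most pools with Krt8. Cdh1 had no entry among the promoter sequences used here, so its window is not shown. The Snail and Zeb repressors are known to bind E-boxes of the letters CACCTG or CAGGTG in epithelial promoters. Sequences are from RefSeq, build GRCm38.p6, read 5′ to 3′ on the gene's strand, with those letters in capitals. They stand at chr15:102004343-102004592 (minus strand) for Krt8, chr15:102027966-102028215 (plus) for Krt18 and chr17:87635729-87635978 (plus) for Epcam.
Krt8: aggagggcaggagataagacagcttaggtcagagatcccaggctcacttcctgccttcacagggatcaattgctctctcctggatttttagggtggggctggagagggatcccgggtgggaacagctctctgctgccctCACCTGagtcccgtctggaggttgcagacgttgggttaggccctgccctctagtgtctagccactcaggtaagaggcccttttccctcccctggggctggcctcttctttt
Krt18: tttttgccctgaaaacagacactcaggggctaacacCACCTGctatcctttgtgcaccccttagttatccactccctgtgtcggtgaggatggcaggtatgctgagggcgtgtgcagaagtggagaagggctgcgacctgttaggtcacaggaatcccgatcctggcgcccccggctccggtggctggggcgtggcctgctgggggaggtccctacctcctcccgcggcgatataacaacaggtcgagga
Epcam: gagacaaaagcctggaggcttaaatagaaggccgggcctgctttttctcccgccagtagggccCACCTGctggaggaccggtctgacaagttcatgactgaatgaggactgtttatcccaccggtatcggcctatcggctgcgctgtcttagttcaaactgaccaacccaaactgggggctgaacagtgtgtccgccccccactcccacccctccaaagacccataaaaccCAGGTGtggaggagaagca
Searched on both strands, the 6 letters occur once in the window of Krt8 and once in that of Krt18, and the window of Epcam has 2 matches. Of 32851 promoter windows of this length, 5657 (17.2%) hold at least 1 match. The windows of Cldn3 and Laptm5 hold 0. A match is a description of letters, not a bound site.

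Krt18 ranged from 0 to 8195 CPM with Krt8 (median 1375) and from 0 to 259 CPM without (median 0). It reached 10 CPM in 17 of 18 pools with Krt8 and 2 of 7 without, namely TENA2483 R4 at 259 CPM and TENA2517 R3 at 57.1 CPM. The groups therefore overlapped, although the difference of mean log2(CPM + 1), with minus without Krt8, was 7.98 (SD within groups 3.01). Krt19, a type I keratin of ductal epithelium, ranged from 0 to 2525 CPM with Krt8 and was at 0 in all 7 pools without. Krt7 reached 10 CPM in 14 pools with Krt8 and in 1 without, TENA2517 R2, where it stood at 848 CPM, above every pool with Krt8 (highest 479 CPM). Of the 6 simple keratins listed, 4 passed the filter of 10 CPM in at least 5 pools, and all 4, Krt8 included, were higher with Krt8 by 3 or more on the log2 scale, an 8-fold difference. Of the others, Krt20 stayed at or below 0.175 CPM, while Krt23 reached 10 CPM in 3 pools with Krt8 and in 1 without. Within TENA2483 the median difference over the 6 members was 1.74, beside 1.23 over all genes that passed the filter.

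That fold is past for 748 of the 7311 genes that passed the filter (10.2%) in the direction of higher with Krt8, and for 19 (0.26%) in the direction of lower. The whole distribution was displaced, with a median difference of 1.45 over all 7311 genes. After centring on that median, 143 genes were higher and 106 lower, so the lean towards higher depends on the centring. The count of lower genes also depends on the filter, since a gene found only without Krt8 must reach 10 CPM in 5 of 7 pools. Over all 30435 genes with a count in at least 1 pool, 748 were higher and 68 lower, with a median of 0.146. Differences of genes that passed the filter are best read against 1.45, and medians over all members of a list also against 0.146. The levels of only 3 genes, 0.041% of those that passed, did not overlap between groups with all pools with Krt8 on top: Krt8, its processed pseudogene Krt8-ps on chromosome 7, and Gm36026, a noncoding gene that overlaps Krt8 on the opposite strand. No gene (0.0%) was separated the other way. Leaving out TENA2517 gave 1590 genes higher and 8 lower, leaving out TENA2483 gave 987 and 90, and leaving out TENA2524 gave 540 and 30. Not overlapping were 39 genes higher and 13 lower without TENA2483, 12 and 0 without TENA2462, and 6 and 0 without TENA2517. Reads of Krt8 could be split with Krt8-ps, a near copy of its sequence, and with Gm36026, which overlaps it, since the sources used here do not state the strand setting of the counting. Within TENA2483, 1156 of the 7311 genes were past the fold higher and 62 lower, with a median of 1.23 over all of them. Those past it within that mouse include 393 of the 748 genes and 3 of the 19, which were chosen with the same pools among the 25, so nothing is read from these shares.

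Over the 25 pools, the levels most like Krt8 by Spearman correlation were those of Gm36026 (rho 0.985), Krt8-ps (0.974), Krt18 (0.930), Hsp25-ps1 (0.875), Cdh1 (0.872), Gm9817 (0.871), Cldn4 (0.870) and Hspb1 (0.866). These are descriptions over pools that share animals and library quality. Hspb1 encodes a small heat shock protein, and Hsp25-ps1 and Gm9817 are a pseudogene of it and a gene overlapping that pseudogene, so reads may be split among them.

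**Figure D2:**
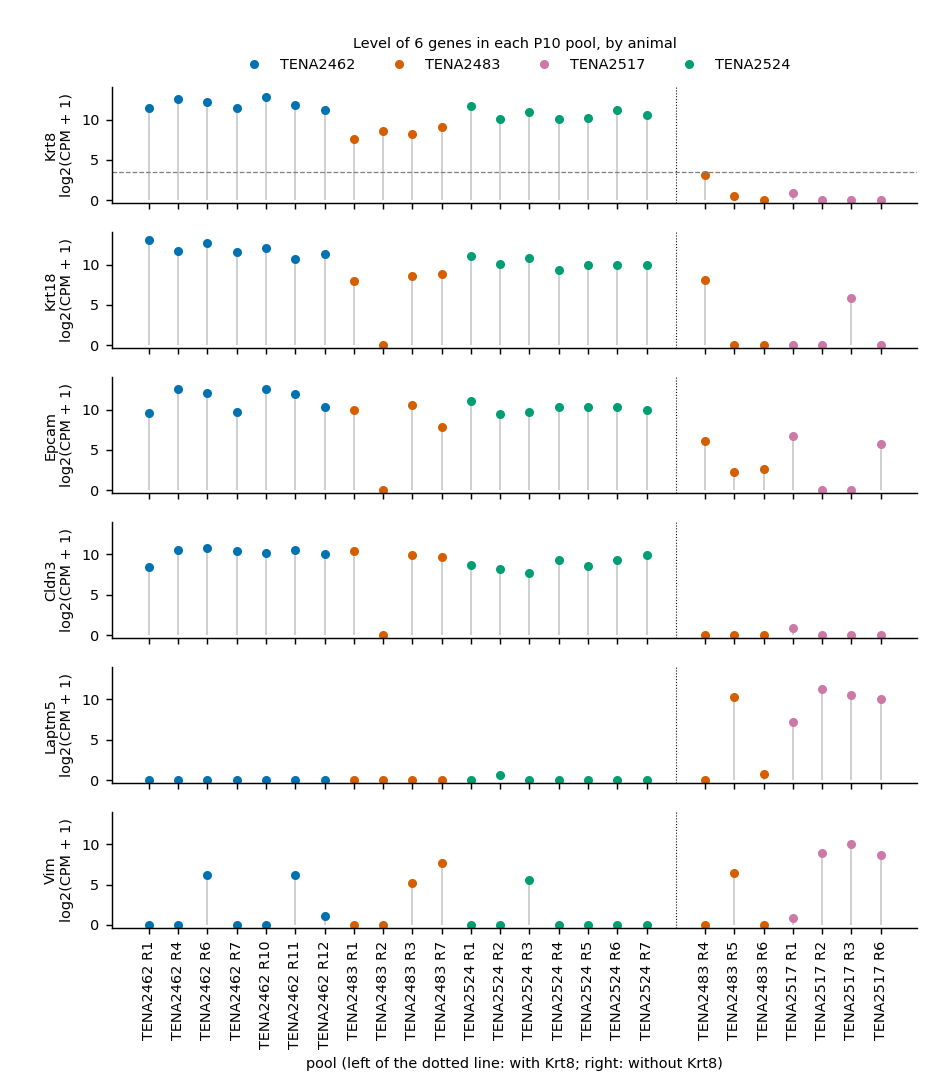
Levels of Krt8, Krt18, Epcam, Cldn3, Laptm5 and Vim as log2(CPM + 1) (vertical axes) in each of the 25 P10 pools (horizontal axis), coloured by animal; pools with Krt8 stand left of the dotted line, and the dashed line in the top panel marks 10 CPM. Cldn3 is at or above 211.5 CPM in 17 of 18 pools with Krt8 and at or below 0.881 CPM in all 7 without, while Laptm5 is at or below 0.525 CPM in the 18 pools with Krt8 and at 10 CPM or more in 5 of 7 without.

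Of the lists read, junction genes had the most members past the fold. Of 22 genes of tight junctions, adherens junctions and desmosomes, 20 passed the filter and 14 were past the fold, all higher with Krt8. The median difference over the 22 members was 4.29. Over the 20 that passed it was 4.66, against 1.45 over all genes that passed. Within TENA2483 the median over the 22 members was 1.73, beside 1.23 over all genes that passed. Cldn3, a claudin that seals tight junctions, ranged from 0 to 1729 CPM with Krt8 (median 878) and from 0 to 0.881 CPM without (median 0), a difference of 8.91 (SD 2.10). Its 1 zero among the pools with Krt8 was TENA2483 R2, so the groups overlapped by that pool. Lsr, which marks tricellular contacts, was at 10 CPM or more in 17 pools with Krt8 and at 0 in all 7 without. Cdh1, encoding E-cadherin, ranged from 0 to 415.5 CPM with Krt8 (median 90.5) and was at 0 in all 7 pools without; it was also at 0 in 3 pools of TENA2483 with Krt8. Cldn4 was likewise at 0 in all 7 pools without Krt8, and it reached 10 CPM in 13 of 18 with Krt8. The summed CPM of the list ran from 0 to 19445 with Krt8 (median 3897) and from 65.3 to 657 without (median 228).

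Epcam, the surface adhesion molecule used for the gate, was counted in some of the pools without Krt8. It ranged from 0 to 6157 CPM with Krt8 (median 1234) and from 0 to 103 CPM without (median 5.24), a difference of 6.55 (SD 2.77). It reached 10 CPM in 17 of 18 pools with Krt8 and in 3 of 7 without: 103 CPM in TENA2517 R1, 65.3 CPM in TENA2483 R4 and 51.4 CPM in TENA2517 R6. One empty well of 256675 counts held Epcam at 990 CPM, more than any of the 7 pools without Krt8. Every pool carried the same label of low EpCAM protein. Krt18 and Epcam together at 10 CPM or more were found in 17 of 18 pools with Krt8 and 1 of 7 without.

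Over all pools, regulators and proteases of epithelium went the same way as the junctions. Of 18 genes, 16 passed the filter and 8 were past the fold, all higher with Krt8 (median difference over the 18 members 2.81). Within TENA2483 the median over the 18 members was 1.22, no higher than the 1.23 over all genes that passed. Plet1, a surface protein of epithelial progenitors, ranged from 0 to 7656 CPM with Krt8 (median 1162) and from 0 to 81.0 CPM without (median 0.215). It overlaps the antisense gene Plet1os, so its reads may be shared. St14, encoding the membrane protease matriptase, was at 0 in all 7 pools without Krt8 and reached 10 CPM in 16 with Krt8, and its inhibitor Spint2 reached 10 CPM in 16 and 3 pools. Esrp1, a splicing regulator of the epithelial programme, reached 10 CPM in 11 pools with Krt8 (highest 121 CPM) and was at 0 in all 7 without.

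Luminal and milk genes were high in most pools with Krt8. Of 23 genes, 15 passed the filter and 11 were past the fold, all higher with Krt8 (median difference over the 23 members 2.97). Within TENA2483 the median over the 23 members was 2.58, beside 1.23 over all genes that passed. Lcn2, encoding the iron-scavenging lipocalin 2, ranged from 1.70 to 14275 CPM with Krt8 (median 4092) and from 0 to 15.3 CPM without (median 0.292), a difference of 9.56 (SD 2.59). Csn3, encoding the milk protein kappa-casein, ranged from 0 to 19232 CPM with Krt8 (median 3698) and from 0 to 46.7 CPM without. Gata3, the transcription factor of luminal cells, reached 10 CPM in 15 of 18 pools with Krt8 and was at 0 in all 7 without. Foxa1 and Csn2 of this list were at 0 in all 25 pools.

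Levels of some of these genes varied widely among the mice with Krt8. Ltf, encoding lactoferrin, stood at 594 to 28243 CPM in 6 of the 7 pools of TENA2462 and at 0 in TENA2462 R1, while no pool with Krt8 from TENA2483 or TENA2524 exceeded 962 CPM, so the ranges of the mice overlap. It was at 3424 CPM in TENA2517 R2, a pool without Krt8, and at 0 in the other 6. Wfdc18, a whey acidic protein family member, was highest in TENA2483 R3 (18749 CPM) and R7 (10375 CPM).

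Basal genes were detected in part of the pools with Krt8. Of 16 genes, 7 passed the filter and 4 were past the fold, all higher with Krt8. The median difference was 3.20 over the 7 that passed, beside 1.45 over all genes that passed, and 1.11 over the 16 members. Within TENA2483 the median over the 16 members was 0.08, below the 1.23 over all genes that passed. Krt14, the type I keratin of basal cells, reached 10 CPM in 8 of 18 pools with Krt8, in all 3 mice, with the highest level in TENA2462 R11 (1787 CPM), and was at 0 in all 7 pools without. Itgb4, an integrin of hemidesmosomes, reached 10 CPM in 13 pools with Krt8 and was at 0 in all without. Sfn, encoding stratifin, reached 10 CPM in 12 pools with Krt8 and was at 0 without, but within TENA2483 its highest level was 0.566 CPM.

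Mesenchymal genes differed in both directions. Of 20 genes, 5 passed the filter, 1 was past the fold higher with Krt8 (Spp1) and 1 lower (Vim), with a median over the 20 members of −0.50. Vim, encoding the vimentin filament, ranged from 0 to 214 CPM with Krt8 (median 0) and from 0 to 1029 CPM without (median 84.4), a difference of −3.23 (SD 3.38). It reached 10 CPM in 5 of 18 pools with Krt8 and 4 of 7 without, so the groups overlapped, and within TENA2483 the difference was +1.11. Vim together with Epcam, both at 10 CPM or more, was found in 5 of 18 pools with Krt8 and 1 of 7 without. Vim together with the leukocyte gene Laptm5, both at 10 CPM or more, was found in 0 of 18 pools with Krt8 and 4 of 7 without. Spp1, encoding the secreted phosphoprotein osteopontin, ranged from 0 to 31902 CPM with Krt8 (median 1504) and from 0 to 155 CPM without.

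Tnc itself, the gene that drives Cre, reached 10 CPM in 4 of 18 pools with Krt8, with 189.5 CPM in TENA2462 R11 as the highest, and was at 0 in all 7 pools without. Tracing is permanent, so its present RNA level is a separate measure from the green label. Fn1, encoding fibronectin, reached 10 CPM in 1 pool of each kind, and Cdh2, encoding N-cadherin, was at 0 in all 25.

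Transcription factors linked to EMT fell into different patterns. Sox9 reached 10 CPM in all 18 pools with Krt8 (15.1 to 2226 CPM, median 146) and in 1 of 7 without (TENA2517 R6, 50.8 CPM), and Sox4 reached it in 16 and 0 pools. Zeb1, a repressor of Cdh1, was at or below 0.764 CPM in every pool with Krt8, while it reached 309 CPM in TENA2517 R2 and 25.4 CPM in TENA2517 R6. Zeb2 reached 10 CPM in 1 pool without Krt8, TENA2517 R6 at 79.5 CPM, and was at or below 1.89 CPM in all with Krt8. Snai1 reached 10 CPM in 3 pools with Krt8 and Snai2 in 2, and both were at 0 in all 7 pools without. Snai3, Twist1 and Foxc2 were at 0 in all 25 pools. Of the 14 listed factors 5 passed the filter, and Sox9 and Sox4 were past the fold.

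**Figure D3:**
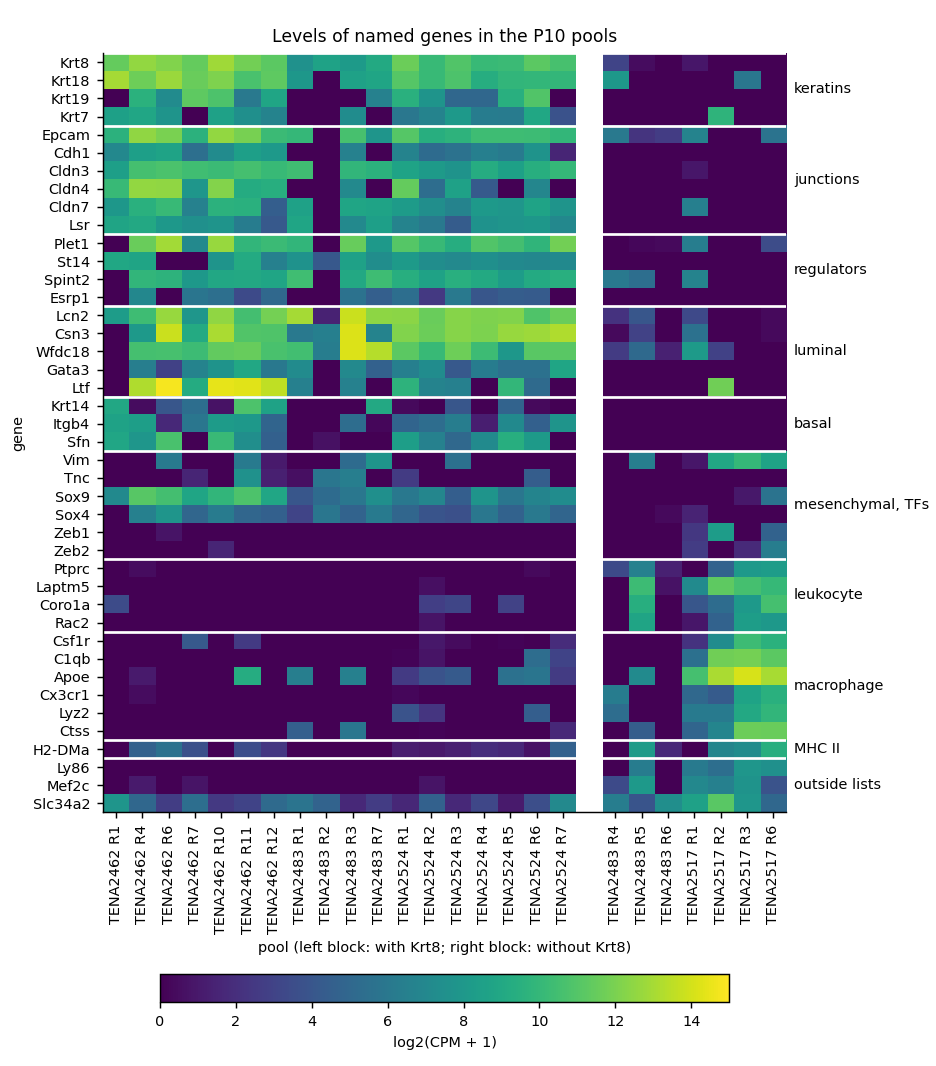
Levels of named genes (rows, grouped by list) in the 25 P10 pools (columns; left block with Krt8, right block without) as log2(CPM + 1), from 0 (dark) to 15 (light). Junction, regulator and luminal genes are high in most of the left block; TENA2483 R2 is low in all 3 groups and TENA2462 R1 in the luminal and milk genes (summed 535 and 313 CPM in these 2 pools), and leukocyte and macrophage genes are high in TENA2517 R2, R3 and R6 and partly in TENA2517 R1 and TENA2483 R5.

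Leukocyte genes were high in 4 of the 7 pools without Krt8, 3 of TENA2517 and 1 of TENA2483. Laptm5, a lysosomal protein of blood cells, ranged from 0 to 0.525 CPM in the 18 pools with Krt8 and from 0 to 2458 CPM in the 7 without (median 1051), a difference of −7.12 (SD 2.47). It reached 10 CPM in 0 of 18 pools with Krt8 and 5 of 7 without; TENA2483 R4, at 0, and TENA2483 R6, at 0.654 CPM, were the exceptions. Ptprc, encoding the pan-leukocyte antigen CD45, was at or below 0.386 CPM with Krt8 and reached 10 CPM in 4 of 7 pools without (highest 309 CPM), too few pools for the filter. Of the 12 pan-leukocyte genes, 6 passed the filter and 3 (Laptm5, Coro1a and Arhgdib) were past the fold, all lower with Krt8. Among members that failed the filter, Ptprc (−4.60), Rac2 (−4.35), Cd52 (−3.30) and Cd53 (−3.13) had differences of that size. Hcls1 (−1.70) and Was (0.19) did not. Against these, Cytip and Lcp1 reached 10 CPM in 6 and 8 pools with Krt8 and in 1 and 3 without. The summed CPM of the 12 genes ran from 0 to 636 with Krt8 (median 58.7) and from 2.29 to 5824 without (median 2656). In TENA2483, the mouse with both kinds of pool, the order of the median sums was the other way. The sum there ran from 5.95 to 624 CPM with Krt8 (median 116). Without Krt8 it stood at 2.29, 9.51 and 3373 CPM in the 3 pools. The median of the 12 gene differences kept its sign in that mouse (−2.56, and −3.22 over all pools). Lcp1 (2.37) and Cytip (2.42) were higher with Krt8 there. One empty well of 44339 counts held Ptprc at 744 CPM.

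Macrophage genes showed the same contrast, carried by TENA2517. Of 19 genes, 8 passed the filter, 6 were past the fold lower with Krt8 and 1, Cd14, was higher (5.12); Cd14 is also a gene of luminal progenitors and stands in both lists. Apoe, the lipoprotein of lipid-handling macrophages, ranged from 0 to 612 CPM with Krt8 (median 2.95) and from 0 to 17244 CPM without (median 1537), a difference of −5.62 (SD 4.05). The complement gene C1qb ranged from 0 to 39.9 CPM with Krt8 and from 0 to 3747 CPM without (median 45.8), and it was at 0 in all 3 pools of TENA2483 without Krt8. Csf1r, the macrophage growth factor receptor, reached 10 CPM in 1 of 18 pools with Krt8 and 3 of 7 without, all 3 from TENA2517. The macrophage sum ran from 0.283 to 2707 CPM with Krt8 (median 428) and from 0 to 38354 CPM without (median 2594). The median difference over the 19 members was −3.98 with all pools and 0.115 without the 4 of TENA2517.

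Marker genes of other cell types were summed in the same way. The 7 class II genes summed to 0 to 84.2 CPM with Krt8 and to 0 to 54117 CPM without (median 112), and the 8 B-cell genes to 0 to 21.3 CPM and 0 to 3795 CPM. Of 15 T and NK cell genes, 9 were at 0 in all pools, Cd3e among them. Fibroblast genes summed to 0 to 431 CPM with Krt8 and 0 to 1151 CPM without, and Col1a1 reached 555 CPM in TENA2517 R2. Endothelial genes summed to 0 to 54.9 CPM and 0 to 402 CPM. Pericyte genes summed to 0 to 50.7 CPM and 0.307 to 166 CPM, neutrophil and mast cell genes to 0 to 59.6 CPM and 0 to 328 CPM, dendritic cell genes to 0 to 34.3 CPM and 0 to 1173 CPM, and red cell genes to 0 to 30.1 CPM and 0 to 21.1 CPM. The part of non-tumour RNA in the differences between the groups was not tested.

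**Figure D4:**
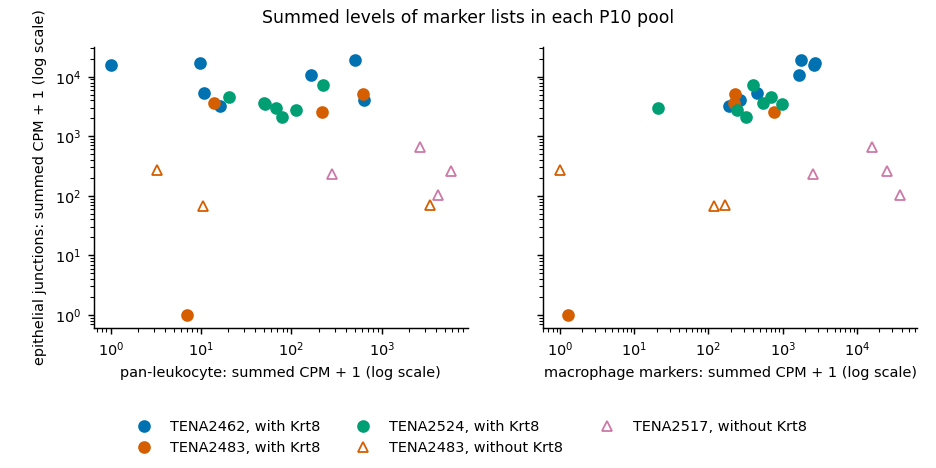
Summed CPM + 1 of the 22 junction genes (vertical axis, log scale) against that of the 12 pan-leukocyte genes (left) and the 19 macrophage genes (right; horizontal axes, log scale) in each P10 pool; filled circles are pools with Krt8, open triangles pools without, coloured by animal. Of the pools with Krt8, 17 lie high on the junction axis and TENA2483 R2 at 0, while 4 of the 7 pools without Krt8 lie at 2656 CPM or more on the pan-leukocyte axis.

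The 7 pools without Krt8 were not alike. TENA2517 R3 and R6 had macrophage sums of 38354 and 25642 CPM, Csf1r at 1269 and 768 CPM, and Ptprc at 277 and 309 CPM, and R6 also had the class II sum of 54117 CPM. TENA2517 R2, the shallowest library with 313655 counts, had a macrophage sum of 15935 CPM beside Krt7, Ltf, Zeb1 and Col1a1 at the levels given above. TENA2483 R5 held 3373 CPM of pan-leukocyte genes, 8823 CPM of class II genes and 3795 CPM of B-cell genes, with Csf1r and C1qb at 0. TENA2517 R1 held Apoe at 1537 CPM and Laptm5 at 144 CPM together with Epcam at 103 CPM, Cldn7 at 88.9 CPM and Wfdc18 at 283 CPM.

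The other 2 pools without Krt8 had the highest shares of counts on the ribosomal locus among the 7. TENA2483 R4 had 86.2% of its counts on that locus, and its Krt18 of 259 CPM, Epcam of 65.3 CPM and Krt8 of 24 counts stood beside Cx3cr1 at 76.4 CPM and Laptm5 at 0. When the locus is left out of the total, its Krt8 becomes 53.4 CPM, and it would move to the pools with Krt8. TENA2483 R6 had 94.1% of its counts on the locus, no Krt8 or Krt18 count, and pan-leukocyte and macrophage sums of 2.29 and 0 CPM.

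Of the pools with Krt8, TENA2483 R2 was unlike the rest. It had 392 CPM of Krt8 (1385 counts) but no count of Krt18, Epcam, Cldn3 or any other junction gene, and 85.5% of its counts lay on the ribosomal locus. TENA2462 R1, with 718932 counts, had Krt8 at 2858 CPM and Krt18 at 8195 CPM, while Plet1, Csn3 and Wfdc18 were at 0. Leaving out the pools at 80% or more on the locus gave 763 genes higher and 57 lower with Krt8.

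Hypoxia and glycolysis genes that passed the filter had a median of 1.80, against 1.45 over all genes that passed. Of 14 such genes, 12 passed and 3 (Ndrg1, Pfkl and Slc2a1) were past the fold higher with Krt8. The median over the 14 members was 1.48. Slc2a1, the glucose transporter GLUT1, reached 10 CPM in 14 of 18 pools with Krt8 and 1 of 7 without. It was at 0 in every pool of TENA2483, so no difference can be read within that mouse. Of 12 immediate early genes, all 12 passed and 2 (Ier3 and Egr1) were past the fold; the list median was 2.17 over all pools and −0.34 within TENA2483, where the summed CPM had medians of 538 with Krt8 and 2117 without. Of 10 heat shock genes, all 10 passed and Hspb1 was past it: 0 to 1806 CPM with Krt8 (median 179), and 0 in all 7 without. Of 13 mitochondrially encoded genes, 11 passed and 0 were past the fold (median over the 13 members −0.53, and 1.89 within TENA2483). Only 3 of 18 cell cycle genes and 2 of 13 interferon genes passed the filter, with 0 past the fold, so these lists could hardly be read. Of 9 MHC class I genes 8 passed and 1, H2-D1, was past the fold higher with Krt8. Over all genes that passed, 10.2% were past the fold higher with Krt8. Nothing is therefore read about the immediate early, heat shock and MHC class I lists from these counts.

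Of the signalling genes that passed the filter, 3 were past the fold, beside the 10.2% of all genes. Of 10 ErbB and Met genes 4 passed the filter, and Erbb2, a receptor tyrosine kinase, was past the fold: it reached 10 CPM in 9 pools with Krt8 and was at 0 in all 7 without. Of 12 TGF-beta pathway genes 9 passed, and Tgfb2 (3.39) and Ltbp1 (3.14), a ligand and its latent binding protein, were past the fold, and both were higher with Krt8. Tgfb2 reached 10 CPM in 11 pools with Krt8 and 1 without. Of 22 collagen and matrix genes, 13 fibroblast genes and 11 pericyte genes, 1, 1 and 0 passed the filter, so the fold could not be read for these lists.

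Outside the lists, the protein-coding genes with the highest positive differences were led by Gm9817 (7.71), the detoxifying enzyme gene Mgst1 (7.14), the mucin-like surface gene Cd24a (6.96), the growth factor binding protein gene Igfbp5 (6.75) and the tetraspanin-like gene Tm4sf1 (6.74). Mgst1 ranged from 0 to 1299 CPM with Krt8 (median 228) and was at 0 in all 7 pools without. Tmc4, Tnfrsf12a, Ceacam1, 2010111I01Rik, Bsg, Ly6e, Aamp, Plpp2, Anxa1 and Phlda1 followed, from 6.61 to 6.06. The most negative differences were those of Mef2c (−5.08), Lgmn (−4.97), Ly86 (−4.75), Ripk3 (−3.53) and Slc34a2 (−3.32). Ly86, a partner of an innate immune receptor on myeloid and B cells, was at 0 in all 18 pools with Krt8 and reached 10 CPM in 5 of 7 without (highest 231 CPM). Slc34a2, a phosphate transporter of epithelium, had a different pattern, with 10 CPM or more in 9 of 18 pools with Krt8 (1.16 to 227 CPM) and in all 7 without (14.0 to 2327 CPM), including TENA2483 R4 and R6, where Laptm5 stood at 0 and 0.654 CPM.

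The genes of the split were then looked up in P15 and P16 libraries, which the split did not use, although the mice are the same. Counts were summed per animal and gate and compared with edgeR's quasi-likelihood test with the animal as a block, adjusted by Benjamini-Hochberg over all genes tested and called at an adjusted p below 0.05. P15 had 3 sums and P16 had 4, with 3 mice in both; the P15 sum of TENA2524 and the P16 sum of TENA2483 are 1 library each. Of 23163 genes, 97 (0.419%) were higher and 495 (2.14%) lower in P15 than in P16. Of the 748 genes higher with Krt8 in P10, 138 (18.4%) were called lower in P15 and 0 higher. Of the 19 lower with Krt8, 4 (21.1%) were called higher in P15 and 0 lower. All of these genes had passed the filter of 10 CPM in at least 5 P10 pools. The share called among the 7311 genes that passed it was not computed, so nothing is read from the distance to 2.14% or 0.419%. The count of calls depended on single mice: 261 genes were called without TENA2517, 333 without TENA2462 and 913 without TENA2483. Of 40 genes named by rule and called, 12 were called in every setting tried, Krt8, Cldn3, Cdh1, Plet1 and Lcn2 among them.

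Epithelial genes fell in P15: 3 of 5 simple keratins tested, 9 of 22 junction genes, 12 of 18 regulators and 6 of 22 luminal and milk genes were called lower in P15, and 0 in these lists were called higher. Their median log2 fold changes were −12.80, −7.50, −8.78 and −6.55 with genes at 0 in a gate set to their bound, beside −0.31 over all genes tested. Krt8 had 0, 0.0649 and 0 CPM (TMM-scaled) in the P15 sums of TENA2483, TENA2517 and TENA2524, against 624.6, 4841 and 1155 CPM in their P16 sums and 6995 CPM in that of TENA2462. No P15 value came near a P16 value. With 1 Krt8 count in all P15 sums against 417756 in P16, the log2 ratio of pooled counts was −17.32 (95% counting interval −22.62 to −14.84) and the adjusted p 3.68e-06. Cldn3 had 1 count in P15 against 91534 in P16 (log2 ratio −15.13, interval −20.43 to −12.65, adjusted p 3.99e-08). Plet1 had 0 counts in P15 and 203724 in P16, at least 14.70 lower on the log2 scale when 3 counts stand for the 0 of the gate (adjusted p 3.99e-05). Spint2 fell by 7.203 ± 0.92 (SE; adjusted p 0.000105) and Lcn2 fell by 6.37 ± 0.98 (adjusted p 0.00081).

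Basal genes had 0 of 14 called in either direction. Epcam had 15.8, 0 and 125 CPM in the P15 sums of TENA2483, TENA2517 and TENA2524, against 1532, 4266 and 1373 CPM in their P16 sums and 3239 CPM in TENA2462. Its fold of −5.41 ± 1.51 just missed the threshold (adjusted p 0.0550).

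Leukocyte and macrophage genes rose in P15: 5 of 12 and 6 of 19 were called higher and 0 lower. Laptm5 had 840, 1341 and 3.48 CPM in the P15 sums of TENA2483, TENA2517 and TENA2524, against 0, 0 and 0 CPM in their P16 sums and 0.733 CPM in TENA2462. Its log2 fold change was 12.53 ± 3.31 (adjusted p 0.0425), higher in 3 of 3 mice, and it was called in 6 of the 12 settings tried. Apoe had 658, 17124 and 10941 CPM in those P15 sums, against 0, 0.0393 and 1.82 CPM in P16 and 2.01 CPM in TENA2462 (12.59 ± 2.72, adjusted p 0.0137). Among EMT factors 1 of 13 was called, Zeb2, higher in P15 (9.25 ± 2.32, adjusted p 0.0317; higher in 2 of 3 mice). Of 20 mesenchymal genes 3 were called higher, Lgals1, which encodes galectin 1, among them (2.56 ± 0.61, adjusted p 0.0243). Vim was not called, with 350, 766 and 0 CPM in P15 and 0, 238 and 3.57 CPM in P16 of the same mice. MHC class II genes had 0 of 7 called, but all 7 folds were above 0, with a median log2 fold change of 6.20. Their summed CPM ran from 0 to 40071 in P15 libraries (median 11757) and from 0 to 2516 in P16 libraries (median 3.32). The part of leukocyte RNA in the P15 result was not tested.

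Summed over all pools of a mouse, Krt8 was high in the P10 sums of 3 mice and near 0 in that of TENA2517. Krt8 had 4421, 335, 0.127 and 2406 CPM in the P10 sums of TENA2462, TENA2483, TENA2517 and TENA2524, against 6203, 705, 4695 and 1174 CPM in their P16 sums. The fold was −0.44 ± 1.15 (adjusted p 1.0). Epcam had 3562, 634, 37.2 and 1659 CPM in P10 and 2872, 1731, 4137 and 1396 CPM in P16, with a fold of −0.72 ± 1.18 (adjusted p 1.0). Over 23754 genes, edgeR called 0 higher (0.0%) and 0 lower (0.0%), with 1476 at an unadjusted p below 0.05, while DESeq2 called 1497. Though none was called by edgeR, the folds of all 12 pan-leukocyte, 19 macrophage and 7 class II genes were above 0. Their medians were 7.52, 8.70 and 4.29 with genes at 0 in a gate set to their bound. Of the 22 junction genes, 19 had folds below 0 and 3 above (median −0.60). When only the 7 pools without Krt8 stood for P10, in 2 sums, edgeR called 104 genes higher and 1061 lower than in P16 among 25932 tested. These pools were chosen for lacking Krt8, which most P16 libraries hold. That choice bears on which genes are called, so nothing is read from these counts.

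Against P15, the P10 sums had 168 genes higher (0.707%) and 24 lower (0.101%) among 23754 tested; this comparison uses the same P10 sums as the last and the same P15 libraries as the one before. Of the 748 genes higher with Krt8, 69 were called higher in P10 than in P15 and 0 lower, but the P10 sums hold the pools that chose these genes, so nothing is read from that count. Krt8 had 179531 counts in P10 against 1 in P15 (log2 ratio 16.22, interval 13.75 to 21.53, adjusted p 0.00184). Cldn7 (27923 counts against 0) and Plet1 (171790 against 0) were at least 11.95 and 14.58 higher on the log2 scale, with adjusted p of 0.00111 and 0.000647. Of 23 genes named by rule and called, 3 (Cldn7, Plet1 and Plet1os) were called in every setting tried; 27 genes in all were called without TENA2462, 35 without TENA2524, 47 without TENA2560 and 311 without TENA2483. Epcam had a fold of 4.81 ± 1.56 that missed the threshold (adjusted p 0.139). Genes called lower in P10 included Il10ra, a cytokine receptor of leukocytes (3 counts against 3632), and Plac8 (8 against 5164).

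The share of libraries with Krt8 in P10 differed between mice and gates. At 10 CPM or more Krt8 was found in 18 of 25 P10 pools (7 of 7 in TENA2462 and in TENA2524, 4 of 7 in TENA2483 and 0 of 4 in TENA2517), 0 of 12 P15 libraries (highest 0.265 CPM) and 25 of 26 P16 libraries. Among the other Tnc-CreERT2 gates it was found in 55 of 55 P18, 50 of 50 P22, 48 of 48 P09 and 11 of 11 P17 libraries, and in 10 of 32 P05 libraries, the red gate without EpCAM. P16 libraries had 0 to 13332 CPM of Krt8 (median 2480), and P18 libraries had 660 to 9058 CPM (median 4264), all above the 4 pools of TENA2483 with Krt8. Ptprc reached 10 CPM in 0 of 18 P10 pools with Krt8, 4 of 7 without, 12 of 12 P15 libraries and 0 of 26 P16 libraries. Vim had a median of 0 in P10 pools with Krt8, 84.4 CPM in those without, 226 CPM in P15 and 0 in P16.

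**Figure D5:**
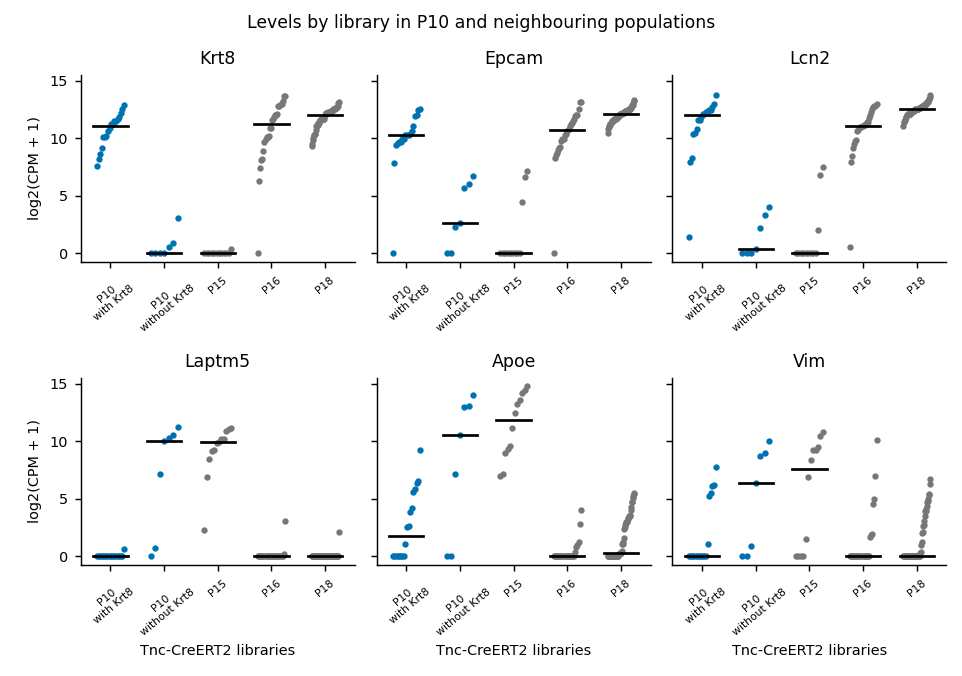
Levels of Krt8, Epcam, Lcn2, Laptm5, Apoe and Vim as log2(CPM + 1) (vertical axes) in each Tnc-CreERT2 library of P10 with Krt8, P10 without Krt8, P15, P16 and P18 (horizontal axes); points are libraries and lines are medians. Krt8 itself made the P10 groups. Laptm5 has a median of 0 CPM in P10 pools with Krt8, 1051 CPM in those without, 969 CPM in P15 and 0 CPM in P16.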

How the data were processed

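The authors deposited 1 table of raw read counts per gene for 504 wells, 17 of them empty. Reads were mapped to mm10 with STAR and counted with featureCounts (Subread), with SAMtools also named, per the submitters' processing notes; the sources used here give neither versions nor the strand setting. All 55450 gene identifiers matched GENCODE symbols. From the deposited counts, CPM was computed by column total. The Krt8 split was described over genes at 10 CPM or more in at least 5 of 25 pools, as differences of mean log2(CPM + 1), with minus without Krt8; a difference of 3 counts as past the fold. Gates were compared on counts summed per animal and gate, with the animal as a block because the same mouse gave both sums: edgeR 4.0.16 (R 4.3.3), TMM factors, filterByExpr, robust quasi-likelihood F test, two-sided, Benjamini-Hochberg adjustment over all genes. All Tnc-CreERT2 gates shared 1 estimate of the spread, without P10 in the P15 and P16 comparison. DESeq2 1.42.0 was an alternative; a gene at 0 in a gate got a bound from 3 counts over the gate. Counting intervals cover counting error only. Scripts were tested on simulated data. The split, the gene lists and the tests were chosen with earlier results of these data known. Genes are named by rule: up to 6 per list with the largest absolute difference, all keratins, EMT factors and pan-leukocyte genes, fixed markers, 15 per direction outside the lists, 8 most like Krt8 and 6 per direction in each test; the P10 pools of each mouse come from 1 animal and are not replicates of a condition. No library was a duplicate of another.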

Additional observations from a re-analysis of the deposited data

Results flagged for a closer look

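In TMM-scaled CPM, the P10 sum of TENA2517 stood far below the other 3 mice for Cldn3 (0.127 CPM), Lcn2 (1.40 CPM) and Csn3 (6.86 CPM); all 4 of its pools lacked Krt8, and these values belong to the same split. In P16 sums, Laptm5 stood apart in TENA2462 (0.650 CPM against 0 in the other 3 mice), and Csn3 stood apart in TENA2483 (0.0 CPM), which is 1 library. These values passed the 95% critical value of Dixon's gap test for 4 samples, at which chance flags about 1 in 20 groups. That rate is not applied here, since the genes screened were chosen with earlier results of these data known. The flags of Cldn3, Lcn2 and Csn3 in TENA2517 also follow the Krt8 split. For Laptm5 the rate cannot hold either, as the other 3 mice are at 0 and any count passes. The P16 sums held 27 counts of Laptm5, so nothing is read from that flag. Of the 14 P10 pools that failed quality control and were not used, 2 of TENA2462 held Krt8: R2 at 14823.3 CPM (25170 counts) and R8 at 16590.8 CPM (24533 counts), above the highest pool that passed (7459 CPM). Their Epcam stood at 5377 and 6961 CPM. Of the 17 empty wells, 2 held 1 Krt8 count each, which makes 21739 CPM in a well of 46 counts and 3.90 CPM in a well of 256675 counts. The well of 256675 counts also held Epcam at 990 CPM, and an empty well of 44339 counts held Ptprc at 744 CPM.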

How the results depend on the processing

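In the Krt8 split, 1328 genes were past the fold higher on CPM outside the ribosomal locus, 143 after centring, 1286 and 84 with pseudocounts of 0.5 and 10 CPM, 1156 within TENA2483, 1342 without TENA2517 R3 and R6, and 540 to 1590 with 1 animal left out. Lower were 53 outside the locus (71 with pools regrouped), 32 with TMM factors, 35 at a threshold of 5 CPM, 106 after centring, 68 over all genes, 5 with a pseudocount of 10 CPM, 62 within TENA2483, 57 without pools at 80% or more on the locus, and 8 to 90 with 1 animal left out. Not overlapping and higher were 7 in pools of at least 1000000 counts, 14 without pools at 80% or more, and 3 to 39 with 1 animal left out; not overlapping and lower were 1 with pools regrouped, 1 at 5 CPM, 4 without pools at 80% or more, and 0 to 13 with 1 animal left out. Without TENA2517 the sign turned for the macrophage median (−6.85 to 0.115 with 1 animal left out), Apoe (−10.2 to 0.263) and C1qb (−9.44 to 0.518), and within TENA2483 for 3 named genes past the fold, Vim (1.11), Apoe (0.84) and Ctss (1.13), and for 16 of 59 named genes not past it, such as Atf3 (−4.43 within TENA2483, 2.23 over all pools) and Lgals1 (3.50 and −0.999). Centring, leaving out the locus, the pools at 80% or more and TENA2517 R3 and R6 were chosen after seeing the data.

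P15 against P16 gave 5095 calls with DESeq2, 1242 with no replicate block, 62 with the 2 populations alone and 261 to 913 with 1 animal left out. P10 against P16 gave 1497 with DESeq2, 2 with no replicate block, 1165 without the pools with Krt8, 2 without those below the threshold, and 0 to 3 with 1 animal left out; Krt8 turned to 0.0712 without TENA2517 (−1.38 to 0.0712 with 1 animal left out) and 0.117 without the pools below the threshold. P10 against P15 gave 4056 with DESeq2, 117 over all genes, 362 with no replicate block, 20 with the 2 populations alone, 522 without the pools with Krt8, 463 without those below the threshold, and 27 to 311 with 1 animal left out. Without the pools with Krt8, the folds of St14 (−5.80), Tmc4 (−3.17), Lcn2 (−2.20), Krt8-ps (−0.374), Epcam (−0.261), Muc15 (−0.224), Cdh1 (−0.0571) and Cldn4 (−0.00386) turned; these pools, in 2 sums, were chosen for lacking Krt8, so this is a description. Counts of calls with either kind of P10 pool left out also rest on groups made on Krt8, so nothing is read from them. Where no setting names its own cause, the cause was not tested. Depth limits pools such as TENA2517 R2 (313655 counts), where a count of 0 allows up to 9.56 CPM.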
